A study of Sus scrofa with 20 samples.

Results

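The genes of the Hedgehog pathway were read in porcine biliary tree stem cells and in sorted cells of the pig liver. The 9 genes were SHH, IHH and DHH for the ligands, PTCH1 and HHIP for the ligand-binding membrane proteins, SMO for the signal transducer, and GLI1, GLI2 and GLI3 for the transcription factors. They were chosen by name, and all 9 had a row by that name among the 25764 genes measured (DHH is ENSSSCG00000000188, GLI1 ENSSSCG00000000443, HHIP ENSSSCG00000009045, GLI2 ENSSSCG00000015733, IHH ENSSSCG00000016204, SHH ENSSSCG00000016416, SMO ENSSSCG00000016569, GLI3 ENSSSCG00000016763 and PTCH1 ENSSSCG00000027312). All 9 reached the minimum for testing. These genes, and the lists of other pathway genes and cell type markers used below, were chosen with earlier results of these data known. Their counts beside the shares of all genes are therefore a description.

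In this pathway a secreted ligand binds the receptor Patched, encoded by PTCH1, which otherwise holds the transducer Smoothened, encoded by SMO, inactive. Active Smoothened shifts the GLI transcription factors from repressors, mainly GLI3, to activators, mainly GLI2, at the primary cilium. GLI1, PTCH1 and HHIP are themselves switched on by the pathway in many tissues, so that PTCH1 and HHIP, which both bind ligand, feed back on it. In the liver and bile ducts the pathway is known for exchange between duct epithelium and the mesenchymal cells beside it, and hepatic stellate cells are among its responding cells.

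The porcine biliary tree stem cells, called pBTSCs, were isolated from suspensions of extrahepatic biliary tissue (gallbladder and the cystic and common ducts) of 5 newborn piglets, and their libraries are labelled as gallbladder. Libraries are named by their storage numbers. S2, S7 and S11 came from H2B-GFP piglets, with a fusion of histone H2B and enhanced green fluorescent protein in the ACTB locus, and S15 and S20 from wild-type piglets. Liver cells sorted on surface antigens gave the other 15 libraries, of which 4 were CD45-/EpCAM+, 2 CD45-/EpCAM-, 5 CD45+ (the leukocyte antigen), 2 CD31+ and 2 CD146+ (antigens of endothelium). The study's methods describe biliary tree stem cells as selected for EpCAM and against CD45, a gate that would remove most mesenchymal cells, and as grouped in organoids with early mesenchymal cells, and do not say for each library which applied. The donor, line and age behind each liver library are not given in the sources used here, so that p-values measure the spread between libraries, part of which may be technical. The study names 5 donors for its pig cells, so that several libraries may share an animal. The tests treat all libraries as independent, and the numbers of libraries are not numbers of animals. Since the H2B-GFP pBTSC libraries all have lower storage numbers than the wild-type ones, piglet line and storage number cannot be told apart. The study lists RNA integrity numbers for the pBTSC samples alone. They are lowest for S7 and S11, highest for the wild-type S20 and missing for S15, and the part of RNA quality in the results was not tested.

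The values are the authors' normalized counts, read counts scaled for the size of each library. They can be compared between libraries for 1 gene but, since they are not divided by transcript length, not between genes. From the low values, 17 libraries held an estimated 21300000 to 77900000 reads and 3 held under 2000000, namely S13 (CD45-/EpCAM+) with 801000, S15 (pBTSCs) with 1570000 and S22 (CD146+) with 455000. In these 3, 3 reads were worth 77.1, 37.7 and 156.5 normalized counts, and lower values there cannot be told from 0. Of the 180 values of the 9 genes, 4 lay at or under 3 reads, 2 in S13 and 2 in S22. The labels were only partly borne out by their marker genes. ALB, the albumin gene of hepatocytes, stood at 513084 normalized counts or more in every liver library, whichever antigen it was sorted for, and PTPRC, the gene of CD45, was at 424 to 2687 in CD45+ libraries against 450 to 3027 in CD45-/EpCAM+ libraries. EPCAM, the gene of EpCAM, was at 884 to 2075 in pBTSC libraries, inside its liver range of 491 to 2232. PECAM1, the gene of CD31, was at 28048 to 36576 in pBTSC libraries against 20102 to 25291 in CD31+ libraries. The groups are therefore called by their labels alone.

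Most of the pathway genes fell into 3 patterns, and the others lay between them. PTCH1, SMO and GLI3 had more normalized counts in every pBTSC library than in any of the 15 liver libraries. HHIP had fewer in every pBTSC library than in any liver library. SHH and IHH overlapped throughout, since all 15 liver libraries lay inside the range of the pBTSC libraries for both. DHH, GLI1 and GLI2 lay in between, with some liver libraries beyond and some inside the pBTSC range. Of the 15576 genes tested, 11.9% had every liver library below every pBTSC library and 9.21% had every liver library above, against 3 and 1 of the 9 pathway genes.

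**Figure D1:**
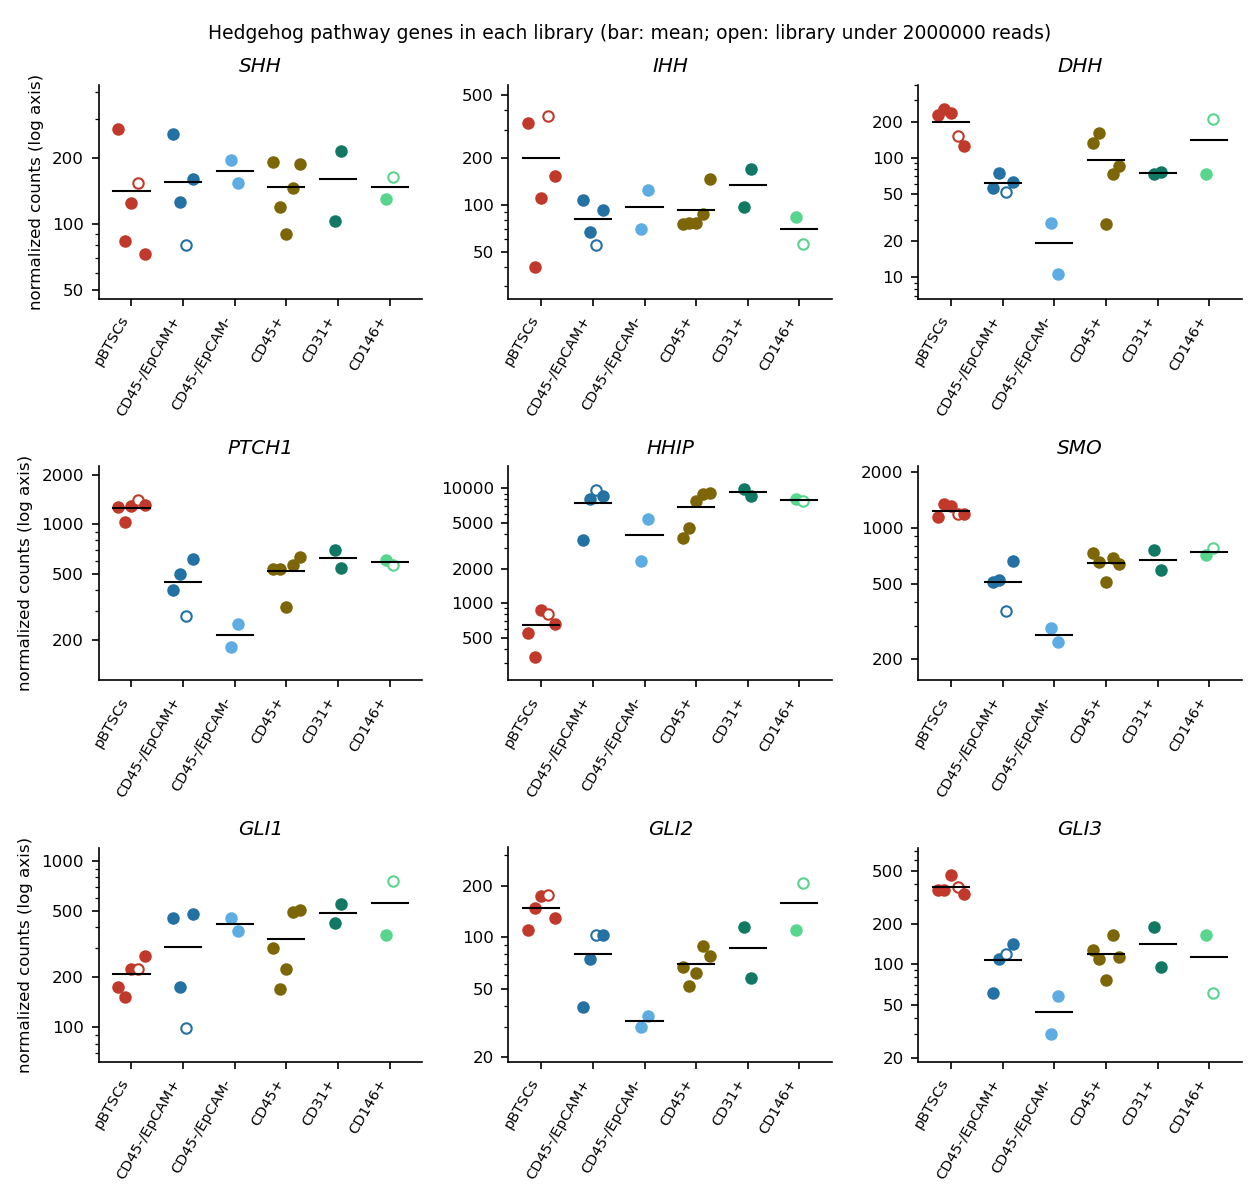
Normalized counts of the 9 Hedgehog genes in each of the 20 libraries on a log axis, by sorted group. Each point is 1 library, bars are group means and open points are the 3 libraries under 2000000 reads. PTCH1, SMO and GLI3 are highest and HHIP lowest in the 5 pBTSC libraries, and SHH overlaps across all groups.

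Differences between groups were fitted with limma on log2(normalized count + 1), with all 6 groups in 1 fit and Benjamini-Hochberg adjustment over the 15576 genes. Calls required both an adjusted p below 0.05 and a log2 fold change larger than 1 in size. In the comparison with CD45-/EpCAM+ cells of the liver, 4 of the 9 genes were higher in pBTSCs (DHH, PTCH1, SMO and GLI3) and 1 was lower (HHIP), where 14.8% of all genes were called higher and 10.3% lower. In that with CD45-/EpCAM- cells of the liver 5 were higher (these 4 and GLI2) and HHIP was lower, with 20% and 16.6% of all genes called. Against CD45+ liver cells 4 were higher (DHH, PTCH1, GLI2 and GLI3) and HHIP was lower, with 11% and 9.54%. Against CD31+ and CD146+ liver cells together 2 were higher (PTCH1 and GLI3) and 2 lower (HHIP and GLI1), with 12.6% and 8.75%. The median log2 fold change over the 9 genes was 0.96, 2.14, 0.93 and 0.70 in these 4 comparisons, and over all genes tested it was 0.08, 0.04, 0.07 and 0.14. The 4 comparisons share the pBTSC libraries and are not independent of each other. Among libraries S15 to S23 alone, with 2 of pBTSCs, PTCH1 was the 1 gene called higher and HHIP the 1 called lower, in each of the comparisons with CD45-/EpCAM+, CD45+ and CD31+ and CD146+ cells. In that fit 8.84%, 12.4% and 15.3% of all genes were called in either direction.

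**Figure D2:**
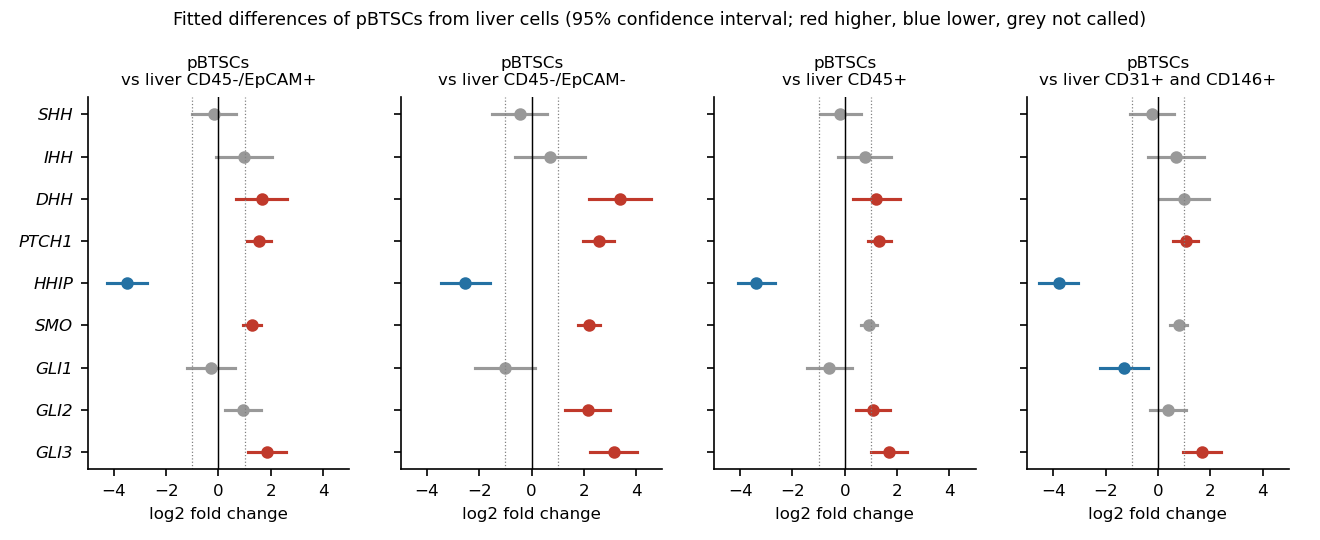
Log2 fold changes of the 9 Hedgehog genes between pBTSCs and each set of liver libraries, with 95% confidence intervals from limma. Red marks genes called higher in pBTSCs, blue genes called lower and grey genes not called, and the dotted lines stand at the fold threshold of 1 either side of 0. HHIP lies at -3.50, -2.53, -3.39 and -3.80, and PTCH1 and GLI3 are called higher in all 4 panels.

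Other cell types moved with these differences. The sum of 6 fibroblast and stellate cell markers ran from 155786 to 645055 normalized counts in pBTSCs and from 15985 to 56951 in liver libraries, and 5 of the 6 (DCN, LUM, PDGFRA, DES and COL1A1) were called higher in pBTSCs than in CD45-/EpCAM+ cells. Of 5 smooth muscle markers 3 had a row, and all 3 (ACTA2, CNN1 and TAGLN) were higher, with a sum of 63293 to 163073 against 9807 to 87305. Of 3 Schwann cell markers 2 had a row (SOX10 and ERBB3), with a sum of 2848 to 7296.5 in pBTSCs and 1542 to 4112 in liver. Of these SOX10 was called higher than in CD45-/EpCAM+ cells, at 672 to 2503 in pBTSCs and 0 to 157 in liver, where the 0 is of the shallow library S22. ERBB3 was not called there (log2 fold change 0.27, adjusted p = 0.486 from limma), at 2176 to 5028 and 1504 to 4112. The sum of 5 hepatocyte markers was 25834 to 63844 in pBTSCs and 806998 to 2353113 in liver, and all 5 were lower. The sum of 5 leukocyte markers was 1662 to 3520 in pBTSCs and 5816 to 19270 in liver, and its members did not move together, since CD14 and CD68 were lower, LYZ was higher, and PTPRC and CD3E were not called against CD45-/EpCAM+ cells. The sum of 5 endothelial markers was 74294 to 97905 and 14609 to 86318, with VWF and PECAM1 called higher and KDR, CDH5 and MCAM not called. The 4 biliary epithelial markers with a row (EPCAM, KRT7, KRT8 and SOX9) were not called against CD45-/EpCAM+ cells, and their sum of 6472 to 17674 in pBTSCs lay inside the liver range of 3985 to 18917. In bulk RNA, a larger share of cells of 1 type and more RNA of a gene per cell cannot be told apart, and the part of these cell types in the results was not tested.

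**Figure D3:**
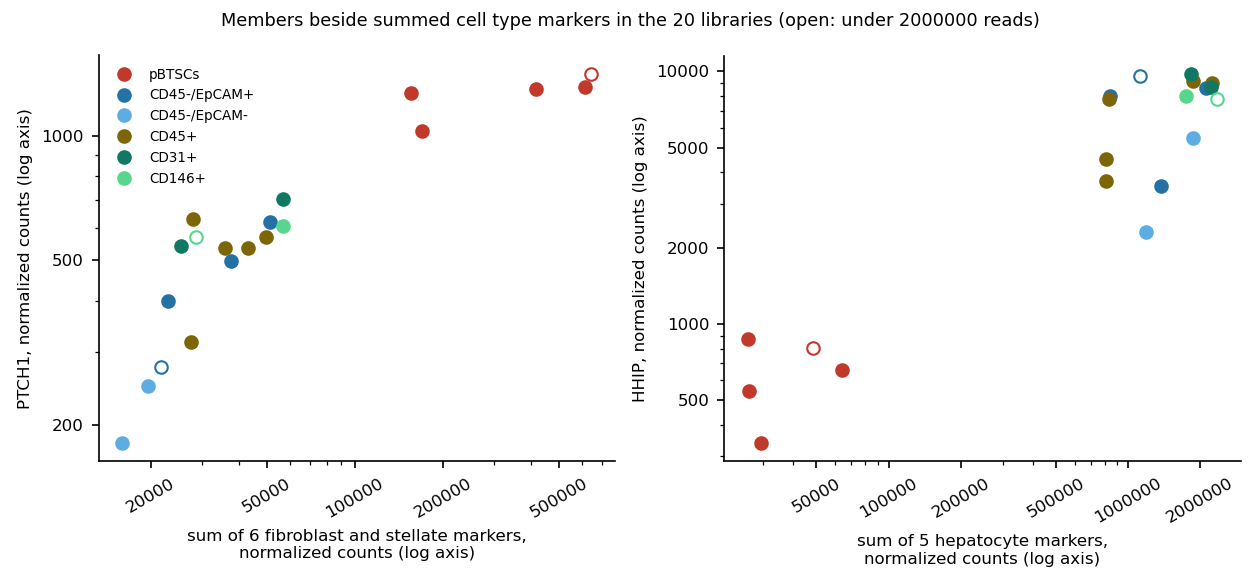
PTCH1 beside the summed fibroblast and stellate cell markers, and HHIP beside the summed hepatocyte markers, in normalized counts on log axes, with 1 point for each of the 20 libraries. The pBTSC libraries stand apart from the 15 liver libraries on both axes of both panels, at 155786 or more on the left and at 63844 or less on the right.

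DHH was the ligand gene that differed. Desert hedgehog is known from Schwann cells, gonads and endothelium. DHH stood at 229, 255 and 236 normalized counts in the H2B-GFP pBTSC libraries S2, S7 and S11 and at 151 and 125 in the wild-type libraries S15 and S20. In CD45-/EpCAM+ libraries it was 56.0, 75.1, 51.4 and 62.1, where the value of 51.4 is of S13 and under its 3 reads, and in CD45-/EpCAM- libraries S5 and S14 28.5 and 10.6. Every pBTSC library was above both of these groups. CD45+ libraries held 132, 160, 28.1, 73.5 and 84.7, CD31+ libraries 72.6 and 76.2, and CD146+ libraries 72.7 and, in S22, 209. Here S3 and S8 among CD45+ cells and S22 reached into the pBTSC range. In S22, which is shallow, the value of 209 stood for 4.0 reads.

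In limma DHH was higher in pBTSCs than in CD45-/EpCAM+ cells by 1.65 on the log2 scale (SE 0.46, adjusted p = 0.00862) and than in CD45-/EpCAM- cells by 3.38 (SE 0.57, adjusted p = 1.4e-04), a value of 4.06 without S5 and 2.71 without S14. The first was not called among S15 to S23 alone (1.13, adjusted p = 0.386 from limma). Against CD45+ cells the log2 fold change was 1.21 (SE 0.43, adjusted p = 0.0379 from limma). This call was lost without any 1 of S2, S7, S11, S12, S18 or S23, with adjusted p from 0.0576 to 0.108 and a log2 fold change of 0.83 without S12. Against CD31+ and CD146+ cells DHH differed by 0.99 and was not called (SE 0.46, adjusted p = 0.111 from limma). SOX10 and the smooth muscle markers moved with DHH against CD45-/EpCAM+ cells, as given above, while ERBB3, the other Schwann cell marker, was not called. The part of these cell types in DHH was not tested. ACTA2, the smooth muscle actin gene, was the gene most like DHH over the 17 deep libraries, with a Pearson r of 0.974, and r was 0.965 over the 13 deep liver libraries alone.

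SHH and IHH, the genes of the Sonic and Indian ligands, were not called in any comparison and varied widely among pBTSCs. SHH stood at 269.8, 83.6, 125, 153 and 73.2 in S2, S7, S11, S15 and S20, a 3.68-fold range, against 80.7 to 257 over the 15 liver libraries with a median of 153. IHH stood at 331, 39.9, 109, 366 and 152 in the same pBTSC libraries, a 9.18-fold range, against 55.5 to 169.6 in liver with a median of 82.9. The IHH values of S13 and S22, 55.5 and 56.3, are under their 3 reads. Both the lowest and the highest value of each gene over all libraries were of pBTSCs. S2 was high and S7 low for both genes.

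The log2 fold change of SHH lay between -0.46 and -0.17 in the 4 comparisons and that of IHH between 0.70 and 0.96. Against CD45-/EpCAM+ cells the 95% interval ran from -1.02 to 0.66 for SHH and from -0.11 to 2.03 for IHH, so that a difference of 2-fold was not excluded by either interval. Without S7 the log2 fold change of IHH was 1.43 against CD45-/EpCAM+ cells (adjusted p = 0.0114 from limma), 1.25 against CD45+ cells (adjusted p = 0.0215) and 1.17 against CD31+ and CD146+ cells (adjusted p = 0.0424), and it was then called in all 3.

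PTCH1, the receptor gene, was higher in pBTSCs and HHIP, the gene of the Hedgehog-interacting protein, was lower, although the proteins of both bind the ligands. PTCH1 stood at 1267, 1029, 1298, 1411 and 1314 normalized counts in S2, S7, S11, S15 and S20. In the liver it was 399.5, 498, 277 and 619 in CD45-/EpCAM+ libraries, 181 and 248 in CD45-/EpCAM- libraries, 535, 537, 317, 571 and 631 in CD45+ libraries, 704 and 542 in CD31+ libraries and 606 and 569.8 in CD146+ libraries. The highest liver library, S16, thus lay under the lowest pBTSC library, S7.

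In limma PTCH1 was higher in pBTSCs by 1.55 against CD45-/EpCAM+ cells (SE 0.22, adjusted p = 3.7e-05), by 2.56 against CD45-/EpCAM- cells (SE 0.28, adjusted p = 2.2e-06), by 1.31 against CD45+ cells (SE 0.21, adjusted p = 1.2e-04) and by 1.06 against CD31+ and CD146+ cells (SE 0.22, adjusted p = 0.00153). As folds these were 2.92, 5.90, 2.49 and 2.09. The last stood near the fold threshold and was no longer called without S21 (0.97) or without the 3 shallow libraries (adjusted p = 0.00661 from limma, with the fold at the threshold). Fibroblast and stellate cell markers moved with PTCH1 between pBTSCs and liver, as the plot of members beside marker sums shows.

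HHIP stood at 543.5, 339, 878, 803 and 657 normalized counts in S2, S7, S11, S15 and S20. It was 3509, 8009, 9573 and 8594 in CD45-/EpCAM+ libraries, 2309 and 5450.0 in CD45-/EpCAM- libraries, 3699, 4490.5, 7806, 9009 and 9170.4 in CD45+ libraries, 9779 and 8646 in CD31+ libraries and 8018 and 7762 in CD146+ libraries. The lowest liver library, S5, exceeded the highest pBTSC library, S11. HHIP had the largest absolute log2 fold change of the 9 genes in 3 of the 4 comparisons, and in that with CD45-/EpCAM- cells DHH, GLI3 and PTCH1 had larger ones.

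In limma HHIP was lower in pBTSCs by -3.50 on the log2 scale against CD45-/EpCAM+ cells (SE 0.36, adjusted p = 1.0e-06), -2.53 against CD45-/EpCAM- cells (SE 0.45, adjusted p = 2.2e-04), -3.39 against CD45+ cells (SE 0.34, adjusted p = 7.7e-07) and -3.80 against CD31+ and CD146+ cells (SE 0.36, adjusted p = 4.7e-07). In folds it was 11.3, 5.79, 10.4 and 13.9 times lower. Exact permutation tests of the log2 values gave p = 0.0159 against CD45-/EpCAM+ cells, the smallest two-sided p that 5 libraries against 4 allow, and p = 0.00794 against CD45+ cells, the smallest for 5 against 5. The call and the direction held in every alternative fit run and without any 1 library, with log2 fold changes between -3.93 and -1.92 over the 4 comparisons. The value against CD45-/EpCAM- cells was -3.15 without S5 and -1.92 without S14. Hepatocyte markers moved with HHIP between tissues. Within the liver, S3, S4, S5 and S8, with the lowest HHIP of 2309 to 4490.5, held hepatocyte sums of 806998 to 1376729, and the other 11 libraries, with HHIP of 5450.0 to 9779, held sums of 833986 to 2353113. Endothelial sums were 14609 to 44730 in the former 4 libraries and 34237 to 86318 in the other 11. The part of hepatocytes, endothelium or other cells in these values was not tested.

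The 2 genes were also set against each other within each library, which no scaling of libraries changes. This ratio was chosen after the values were seen and is given as a description. HHIP divided by PTCH1 was 0.33 to 0.676 in the 5 pBTSC libraries, with a median of 0.50, and 6.91 to 34.6 in the 15 liver libraries, with a median of 13.9. The ratio is of normalized counts and not of transcripts, because the lengths of the transcripts were not taken into account. The lowest liver ratio was of the CD45+ library S3 and the highest of the shallow library S13, and the 4 CD31+ and CD146+ libraries lay between 13.2 and 16.

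**Figure D4:**
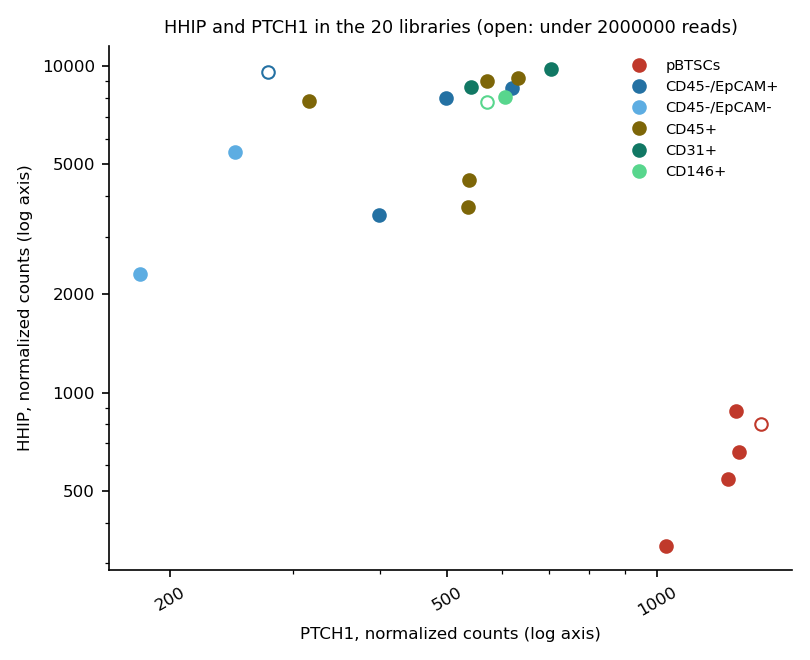
HHIP against PTCH1 in normalized counts on log axes, with 1 point for each of the 20 libraries and colours for the sorted groups. The 5 pBTSC libraries sit at 1029 or more of PTCH1 and 878 or less of HHIP, and the 15 liver libraries at 704 or less of PTCH1 and 2309 or more of HHIP.

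SMO, the transducer, had the smallest spread among pBTSCs of the 9 genes. It stood at 1140.5, 1339, 1309, 1181 and 1187 normalized counts in S2, S7, S11, S15 and S20, a 1.17-fold range. In the liver it was 512, 524, 359.9 and 668 in CD45-/EpCAM+ libraries, 290.3 and 245 in CD45-/EpCAM- libraries, 730.1, 661, 515, 689 and 642 in CD45+ libraries, 762 and 592.5 in CD31+ libraries and 713 and 783 in CD146+ libraries. No liver library reached the pBTSC range. SMO was higher by 1.28 against CD45-/EpCAM+ cells (SE 0.16, adjusted p = 7.2e-06 from limma) and by 2.20 against CD45-/EpCAM- cells (SE 0.20, adjusted p = 3.7e-07). Against CD45+ cells and against CD31+ and CD146+ cells its log2 fold changes of 0.93 (SE 0.15, adjusted p = 1.2e-04 from limma) and 0.79 (SE 0.16, adjusted p = 9.4e-04) passed the adjusted p and not the fold threshold.

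GLI3, the main repressor of the 3 GLI factors, was higher in pBTSCs in all 4 comparisons. It stood at 358, 355.5, 464, 376 and 336 normalized counts in S2, S7, S11, S15 and S20. The liver libraries held 61.6, 109, 119.7 and 141 in CD45-/EpCAM+ cells, 30 and 57.8 in CD45-/EpCAM- cells, 128, 109, 76.1, 166 and 114 in CD45+ cells, 188 and 96.2 in CD31+ cells and 164.5 and 60.8 in CD146+ cells. The value of 60.8 is of S22, where it is under 3 reads. The groups did not overlap, and the liver library nearest to the pBTSCs was S16.

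In limma GLI3 was higher by 1.85 against CD45-/EpCAM+ cells (SE 0.34, adjusted p = 3.6e-04), 3.14 against CD45-/EpCAM- cells (SE 0.42, adjusted p = 1.7e-05), 1.70 against CD45+ cells (SE 0.32, adjusted p = 5.4e-04) and 1.69 against CD31+ and CD146+ cells (SE 0.34, adjusted p = 0.00104). Among libraries S15 to S23 alone, with 2 pBTSC libraries, the log2 fold change was 1.33, 1.36 and 1.61 against CD45-/EpCAM+, CD45+ and CD31+ and CD146+ cells and was not called (adjusted p = 0.322, 0.159 and 0.0560 from limma).

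GLI2, the main activator, was called higher in pBTSCs in 2 of the 4 comparisons. It stood at 110.3, 148, 174, 176 and 129 in S2, S7, S11, S15 and S20. In the liver it was 39.2, 74.4, 103 and 103.5 in CD45-/EpCAM+ libraries, 30.1 and 34.6 in CD45-/EpCAM- libraries, 67.4, 52.4, 62.1, 89.2 and 78.0 in CD45+ libraries, 115 and 58 in CD31+ libraries and 110.1 and 209 in CD146+ libraries. Of the 15 liver libraries 13 lay below all pBTSC libraries, S16 lay inside their range and S22 above it. In S22, which is shallow, the value of 209 stood for 4.0 reads. Of the 13 deep liver libraries, 12 lay below all deep pBTSC libraries and 0 above.

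GLI2 was higher by 2.14 against CD45-/EpCAM- cells (SE 0.41, adjusted p = 4.3e-04 from limma) and by 1.07 against CD45+ cells (SE 0.31, adjusted p = 0.0129). The second was close to the fold threshold, and without S8 it was 0.97 and not called. Against CD45-/EpCAM+ cells the log2 fold change was 0.95 (SE 0.33, adjusted p = 0.0293 from limma), under the threshold, and it rose to 1.05, 1.10 and 1.10 without S2, S13 and S19, when it was called. Against CD31+ and CD146+ cells it was 0.38 (SE 0.33, adjusted p = 0.409 from limma).

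GLI1, both a factor and a widely used target of the pathway, did not follow PTCH1. It stood at 174, 153, 224, 225 and 268 normalized counts in S2, S7, S11, S15 and S20. The liver libraries held 458, 175, 99.4 and 484 in CD45-/EpCAM+ cells, 454 and 381.5 in CD45-/EpCAM- cells, 300.2, 171, 224, 496 and 511 in CD45+ cells, 428 and 550.1 in CD31+ cells and 359 and 756 in CD146+ cells. Of these, 11 lay above every pBTSC library, 3 inside their range and S13, a shallow library, below.

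GLI1 was called in 1 comparison, with CD31+ and CD146+ cells, where it was lower in pBTSCs by -1.29 on the log2 scale (SE 0.43, adjusted p = 0.0313 from limma). The call was lost without any 1 of S2, S7, S16, S21 or S22, with adjusted p from 0.0548 to 0.156, without the 3 shallow libraries (log2 fold change -1.06, adjusted p = 0.0861), and among S15 to S23 alone (-1.03, adjusted p = 0.0531). The other log2 fold changes were -0.28 against CD45-/EpCAM+ cells (SE 0.43), -1.02 against CD45-/EpCAM- cells (SE 0.54, adjusted p = 0.126 from limma) and -0.60 against CD45+ cells (SE 0.41). The 95% interval against CD45-/EpCAM+ cells ran from -1.20 to 0.63. Whether GLI1 differed from PTCH1 in its change was not tested.

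Among the sorts of the liver, none of the 9 genes was called in any of the 3 comparisons. Between CD45-/EpCAM- and CD45-/EpCAM+ cells 2.80% of all genes were called. Both CD45-/EpCAM- libraries lay below all 4 CD45-/EpCAM+ libraries for DHH, PTCH1, SMO, GLI2 and GLI3, as they did for 13.9% of all genes tested. An exact permutation test of 2 libraries against 4 cannot give a two-sided p under 0.133. SMO differed by -0.92 (SE 0.20, adjusted p = 0.0287 from limma), under the fold threshold, and PTCH1 by -1.01 (SE 0.29, adjusted p = 0.0566). Without S13, which is shallow, the differences were -1.08 for SMO (adjusted p = 0.0140 from limma) and -1.22 for PTCH1 (adjusted p = 0.0207), and both were called. PTCH1 was also called without S14 (-1.24, adjusted p = 0.0402 from limma). Between CD45+ and CD45-/EpCAM+ cells, and between CD31+ and CD146+ cells and these 2 together, limma called 0 genes of 15576, with 214 and 2855 at an unadjusted p under 0.05.

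In the liver, PTCH1 did not overlap between the runs of storage numbers, and the ranges of the other members did. Differences between the runs were not tested. The 8 liver libraries from S3 to S14 held 181 to 537 normalized counts of PTCH1 and the 7 from S16 to S23 held 542 to 704. How many of all genes separate the runs in this way was not counted. HHIP ran from 2309 to 9573 in the first and from 7762 to 9779 in the second, and GLI1 from 99.4 to 458 and from 359 to 756. SMO ran from 245 to 730 and from 592.5 to 783, GLI2 from 30.1 to 103 and from 58 to 209, and GLI3 from 30 to 128 and from 60.8 to 188. IHH ran from 55.5 to 123 and from 56.3 to 169.6, and DHH from 10.6 to 160 and from 62.1 to 209. Both values of 209 are of the shallow library S22. SHH had means of 151.9 ± 59.9 (SD, n = 8) and 158 ± 37.1 (SD, n = 7). The narrow range of HHIP from S16 on held over 4 sort labels, CD45-/EpCAM+, CD45+, CD31+ and CD146+. CD31+ and CD146+ libraries occur only in the second run and CD45-/EpCAM- libraries only in the first, so that these sorts cannot be told apart from storage number.

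The rest of the pathway was read from a list of 39 genes by role, of which 36 had a row and all 36 were tested (SCUBE2, CSNK1A1 and BCL2 had no row by that name). Next to CD45-/EpCAM+ cells, 14 of the 36 were called higher in pBTSCs and 3 lower, and next to CD45-/EpCAM- cells 18 and 3. Next to CD45+ cells the counts were 13 and 2, and next to CD31+ and CD146+ cells 10 and 1. These stand beside the shares of all genes called in the same comparisons, 14.8% and 10.3%, 20% and 16.6%, 11% and 9.54%, and 12.6% and 8.75%. Without the 3 shallow libraries the counts were 14 and 2, 19 and 3, 13 and 3, and 10 and 2, where 26%, 41%, 24% and 19.1% of all genes were called in either direction. The median log2 fold change of the 36 genes was 0.74, 1.31, 0.55 and 0.59, and that of all genes 0.08, 0.04, 0.07 and 0.14. Among libraries S15 to S23 alone 2, 3 and 5 were called higher and 1 lower each against CD45-/EpCAM+, CD45+ and CD31+ and CD146+ cells, where the shares of all genes were the 8.84%, 12.4% and 15.3% given above.

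Of 5 receptors and co-receptors, 3 were higher against CD45-/EpCAM+ cells. CDON and BOC, paralogous co-receptors that help PTCH1 bind ligand, ran from 764 to 2264 and from 395 to 648 normalized counts in pBTSCs, against 179 to 399.9 and 38.3 to 235 in the liver, without overlap. Both were called in all 4 comparisons, CDON by 2.26 (SE 0.29, adjusted p = 1.3e-05 from limma) and BOC by 2.26 (SE 0.37, adjusted p = 1.2e-04) against CD45-/EpCAM+ cells. LRP2, a large endocytic receptor, was 45.5 to 211 in pBTSCs and 0 to 32.9 in the liver, where the 0 is of the shallow library S22.

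GAS1, the other co-receptor, was 205 to 346 in pBTSCs and 82.5 to 208.5 in the liver, where the highest value is of the shallow library S22. It was higher by 1.59 against CD45-/EpCAM- cells (SE 0.28, adjusted p = 1.9e-04 from limma) and by 1.22 against CD45+ cells (SE 0.21, adjusted p = 2.2e-04). Its log2 fold changes of 0.97 against CD45-/EpCAM+ cells and 0.90 against CD31+ and CD146+ cells were under the threshold, and without the 3 shallow libraries they were 1.08 and 1.02 and were called. GPC3, a glypican that competes with PTCH1 for ligand, went the other way, with 1905 to 4542 normalized counts in pBTSCs and 5859 to 26768 in the liver. It was lower by -2.01 against CD45-/EpCAM+ cells (SE 0.40, adjusted p = 7.2e-04 from limma) and was called lower in all 4 comparisons. HHIP and GPC3 were thus both called lower in pBTSCs, and whether their roles or the cell types present had a part in it was not tested. Within the liver, GPC3 was highest in S3, S4, S5 and S8, at 14502 to 26768, the libraries with the lowest HHIP.

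Of 6 genes for lipid attachment and release of ligand, SCUBE1, DISP2 and SCUBE3 were higher and DISP3 lower against CD45-/EpCAM+ cells. DISP2 was low, at 10.7 to 38.0 normalized counts in pBTSCs and 0 to 8.07 in the liver. Its highest value is of the shallow library S15, where 3 reads are worth 37.7. The log2 fold change of DISP2 was 2.22 with all libraries and 1.30 without the 3 shallow ones. SCUBE1 and SCUBE3 encode secreted proteins, of a family that helps carry ligand off the cell surface, and SCUBE1 stood at 150.3 to 492 normalized counts in pBTSCs against 0 to 75.9 in the liver. Its log2 fold change of 3.92 (SE 1.05, adjusted p = 0.00685 from limma) was 2.33 (adjusted p = 9.0e-04) without the 3 shallow libraries. Of these S13 lists SCUBE1 at 0 among CD45-/EpCAM+ libraries and S15 holds the highest value among pBTSCs. DISP1, the gene of the transporter that releases ligand, was 633 to 752 in pBTSCs and 413 to 933 in the liver and was not called. HHAT, the gene of the enzyme that attaches palmitate to ligand, was not called either.

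The 16 cytoplasmic and ciliary regulators had a median log2 fold change of 0.25 against CD45-/EpCAM+ cells, where it was 0.70 for ligand release, 2.26 for receptors and co-receptors and 1.70 for targets. Against CD45-/EpCAM+ cells GPR161 and EVC2 were higher, ARRB2 was lower, though not without the shallow libraries, and 13 were not called. GPR161, a ciliary receptor that keeps the pathway off, was 172 to 218 in pBTSCs and 34.3 to 126 in the liver, with a log2 fold change of 1.42 (SE 0.28, adjusted p = 7.3e-04 from limma). EVC2, of a ciliary complex that passes on the signal of SMO, differed by 1.21 (SE 0.24, adjusted p = 6.2e-04 from limma). SUFU, which holds GLI proteins back, was 151 to 241 in pBTSCs and 37.0 to 206 in the liver, and passed only against CD45-/EpCAM- cells, by 1.73 (SE 0.43, adjusted p = 0.00333 from limma). PRKACA and GSK3B, kinases that mark GLI proteins for processing, differed by 0.07 and 0.04 from CD45-/EpCAM+ cells, with 95% intervals of -0.22 to 0.36 and -0.24 to 0.32.

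Of 9 known targets other than the members, 6 were higher in pBTSCs than in CD45-/EpCAM+ cells and in CD45-/EpCAM- cells and 3 were not called. The 6 were FOXF1, FOXF2 and FOXL1, forkhead factors of gut mesenchyme, BMP4, a bone morphogenetic protein, SFRP1, a secreted WNT antagonist, and GREM1, a secreted BMP antagonist. FOXF1 stood at 1047 to 1440.2 normalized counts in pBTSCs and 124 to 992 in the liver, and differed by 1.53 from CD45-/EpCAM+ cells (SE 0.28, adjusted p = 3.1e-04 from limma). BMP4 was 369.7 to 819 against 54.5 to 259.8, with a log2 fold change of 1.95 (SE 0.36, adjusted p = 4.1e-04 from limma). The values of 819 and 54.5 are of the shallow libraries S15 and S22. Without the 3 shallow libraries the log2 fold change of BMP4 was 1.54 (adjusted p = 5.2e-04 from limma). SFRP1 was called against CD45-/EpCAM+ cells with all libraries and not without the shallow ones.

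GREM1 and FOXF2 had the largest log2 fold changes of the pathway, 7.59 (SE 0.71) and 7.27 (SE 0.79) against CD45-/EpCAM+ cells (adjusted p = 3.6e-07 and 1.9e-06 from limma). GREM1 was 339 to 692 in pBTSCs and 0 to 13.4 in the liver, and FOXF2 was 37.7 to 816 and 0 to 5.37. GREM1 is listed at 0 in 3 liver libraries and FOXF2 in 5, among them both of CD45-/EpCAM- cells, so that the sizes of these folds depend on the added 1 and are no bounds. For both genes S13 and S22, which are shallow, are among the libraries at 0. Without the 3 shallow libraries the log2 fold changes were 7.18 for GREM1 and 6.75 for FOXF2 against CD45-/EpCAM+ cells. FOXF2 also differed widely among pBTSCs, with 37.7 in S7 against 404, 289.8, 527 and 816 in S2, S11, S15 and S20. CCND1, MYCN and SNAI1 were not called, with log2 fold changes of -0.08, -0.38 and 0.18 against CD45-/EpCAM+ cells. These targets are also expressed by mesenchymal cells, whose markers moved with them, and the part of those cells was not tested.

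**Figure D5:**
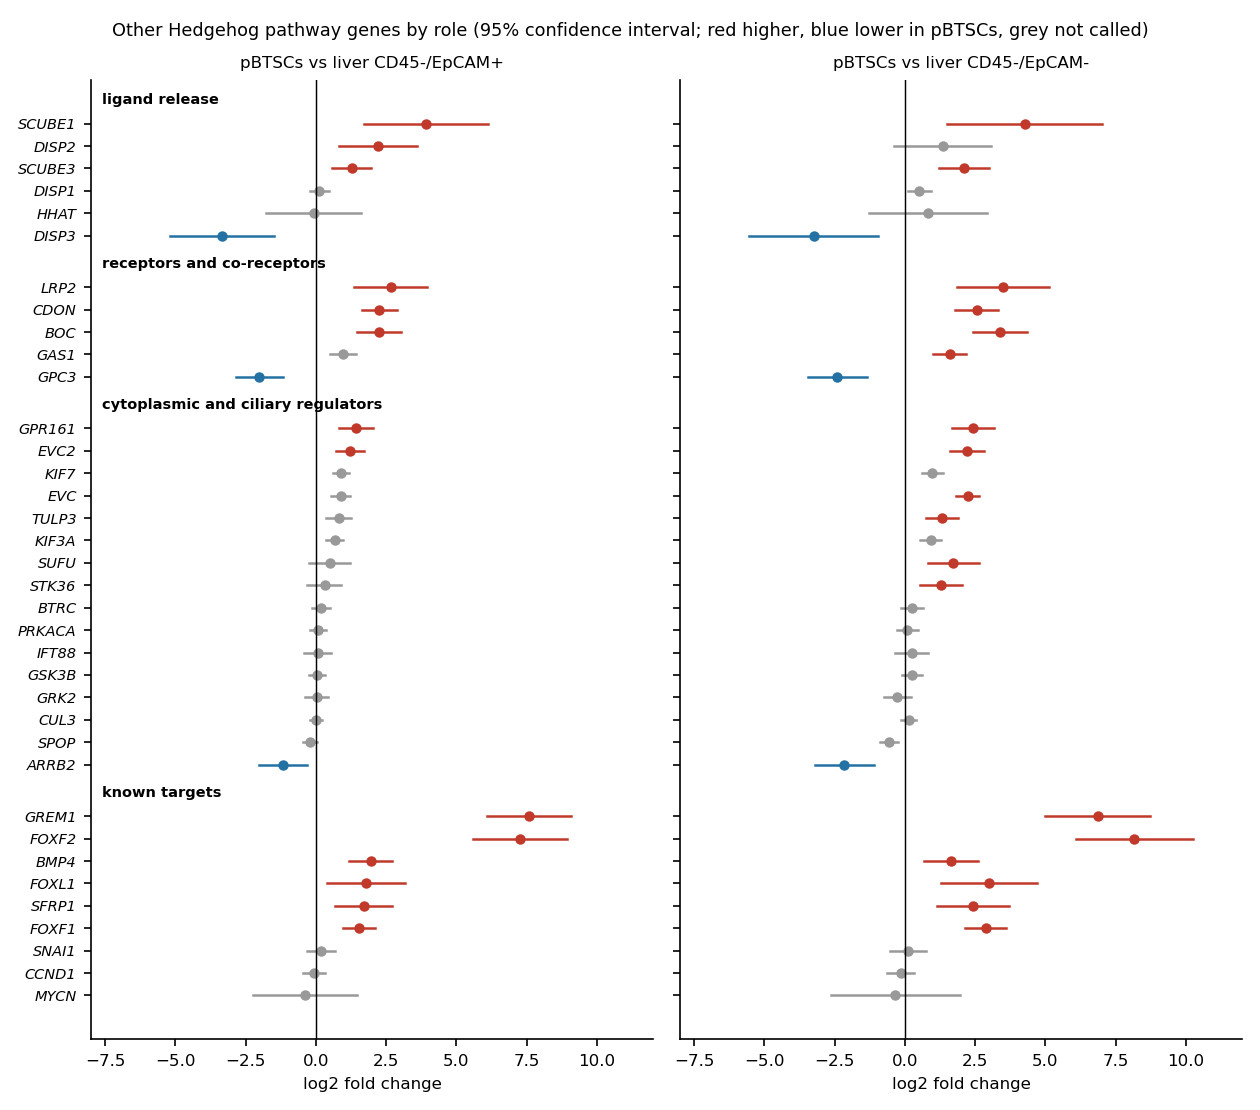
Log2 fold changes of 36 other pathway genes between pBTSCs and CD45-/EpCAM+ or CD45-/EpCAM- liver cells, ordered by role, with 95% confidence intervals from limma. Red marks genes called higher, blue genes called lower and grey genes not called. GREM1 and FOXF2 lie furthest right, at 7.59 and 7.27 on the left panel, and 13 of the 16 regulators are grey there.

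The genes whose pattern was most like each member are given as a description, from 13225 named genes and the 17 libraries of at least 2000000 reads. PTCH1 was most like PTPN13 (Pearson r = 0.985), SMO like LTBP3 (0.987), GLI3 like CHD3 (0.987) and GLI2 like ADCY8 (0.966). BOC, the co-receptor gene, was second for GLI3 with r = 0.985 and 0.971 over the 13 liver libraries. HHIP was most like ZNF804B (0.978) and HGF (0.977), the gene of hepatocyte growth factor, with r of 0.933 and 0.925 over the 13 liver libraries. GLI1 was most like ACAA2 (0.922), a mitochondrial enzyme of fatty acid oxidation. SHH and IHH had no close neighbour, with FAM110C at 0.815 and SDC1 at 0.727, and at 0.881 and 0.334 over the 13 liver libraries. The libraries share tissue, sort, run and scaling.

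Among the members themselves, PTCH1, SMO, GLI2 and GLI3 varied together, with r from 0.90 to 0.97 over the 17 libraries and from 0.82 to 0.93 over the 13 of the liver. HHIP ran against PTCH1 over all 17 libraries (r = -0.55) and with it over the 13 liver libraries (r = 0.67). For GLI1 and PTCH1 r was -0.40 over the 17 libraries and 0.05 over the 13 of the liver. These values carry no test.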

How the data were processed

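Poly(A) RNA of 20 pig cell preparations was sequenced from stranded libraries. The authors deposited their normalized counts per gene and library as 1 table, a signal scaled for library size that is at least 0 and not whole. The submitters' processing notes name STAR, Salmon and DESeq2 without role or version, and the genome build is not given in the sources used here, so no coordinates or sequences are printed. Steps between low values gave an estimate of what 1 read was worth in a library, and from it the depth and the value of 3 reads, which covers counting error only. Because 63.9% to 86.3% of low values per library were whole reads to within 0.05, no read-count model was fitted.

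The limma fit (version 3.58.1, R 4.3.3, trended prior) used log2(normalized count + 1). It kept the 15576 genes that reached 10 normalized counts in 2 libraries or more. Its thresholds are given in the report, and the step was tested on simulated data. Permutation tests were exact and two-sided (scipy 1.17.1). Named were the 9 members, then up to 4 other pathway genes per role by size of change among those called, and some uncalled or additional genes for contrast, chosen after their values were seen. Likeness was ranked by Pearson r over the 17 deep libraries. Members and lists were chosen with earlier results of these data known. Alternatives were other pseudocounts, filters, scalings, weights and fits, each storage run alone, and each library left out in turn. The authors' mean per gene was not used, and 3 genes of the lists are not reported here.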

Additional observations from a re-analysis of the deposited data

Results flagged for a closer look

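In the 27 groups of 4 or 5 libraries of 1 gene (9 genes in pBTSCs, CD45-/EpCAM+ and CD45+ cells), 1 library stood far from the others of its group. IHH in the CD45+ library S23 was 146.0 normalized counts against 74.7 to 86.4 in the other 4, a gap of 0.836 of the whole range. The cutoff for flagging is passed by chance alone in about 1 of 20 groups, and here it was passed in 1 of 27.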

How the results depend on the processing

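HHIP remained lower in pBTSCs and called in each limma alternative that could be fitted for a comparison. Exact permutation against CD45-/EpCAM- cells, at its smallest possible p of 0.0952, could not call it. Among the other counts of members called, that higher against CD31+ and CD146+ cells moved from 2 to 4 with libraries scaled to the same total, to 1 without the 3 shallow libraries, to 1 among storage numbers 15 to 23 and to 4 by exact permutation, and from 1 to 3 with 1 library left out. The count lower there moved from 2 to 1 with the same total, without the shallow libraries and among storage numbers 15 to 23, and from 1 to 2 with 1 library left out. Against CD45+ and CD45-/EpCAM+ cells the count higher fell from 4 to 1 among storage numbers 15 to 23, with 2 pBTSC libraries in the fit. Against CD45-/EpCAM- cells the count lower rose from 1 to 2 in a fit of these groups alone. Between CD45-/EpCAM- and CD45-/EpCAM+ liver cells the count lower rose from 0 to 2 with the same total and without the shallow libraries and to 1 by adjusted p alone, and ran from 0 to 2 with 1 library left out.

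Only differences that were not called changed sign. GLI1 against CD45-/EpCAM+ cells became 0.02 with the same total and ran from -0.72 to 0.03 with 1 library left out. SHH became 0.12, 0.02, 0.08 and 0.06 with the same total against CD45-/EpCAM+, CD45-/EpCAM-, CD45+, and CD31+ and CD146+ cells, and 0.04 and 0.14 against CD45-/EpCAM+ and CD45+ cells among storage numbers 2 to 14. With 1 library left out SHH ran from -0.46 to 0.10 against CD45-/EpCAM+ cells, from -0.44 to 0.02 against CD45+ cells and from -0.50 to 0.03 against CD31+ and CD146+ cells. The same total moved the median of all genes to 0.39, 0.51, 0.32 and 0.43 in the 4 pBTSC comparisons. The causes were not tested. Exact permutation could not pass the threshold with 2 libraries in a group, and some groups are missing from a storage run. No paired analysis was possible because the labels give no replicate numbers and do not tie liver libraries to donors. Depth limits values in S13, S15 and S22, where 3 reads are worth 77.1, 37.7 and 156.5 normalized counts.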
